A study of Mus musculus with 6 samples.

Results

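The genes described here were the 54 mouse genes of the G2/M list that is commonly used to score single cells for the last stages of the cell cycle. They were taken by name, and each matched 1 of the 52636 genes in the count table. Their levels were read in cells of the mouse retinal pigment epithelium (RPE) and choroid, the vascular layer behind it, which had been dissociated, cultured and then profiled by droplet single-cell RNA sequencing of RNA 3′ ends, with molecules counted by unique molecular identifiers (UMIs). The samples came from male C57BL/6J mice aged 12 to 16 months, 3 Dram2 wt/wt and 3 Dram2 ko/ko, the knockout allele lacking exon 4 of Dram2, a gene for a membrane protein of lysosomes. Dram2 ko/ko replicate 3 was the only sample of batch 2 and the other samples were batch 1, and nothing in the sources used here says how many animals or cultures stood behind a sample, so p-values measure the spread between these samples.

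The table held 25428 cells, with 96808998 to 122746184 UMIs per sample and a median of 16453 to 47373 UMIs per cell. The deposited annotation gave 8 cell types and 9 numbered sub-clusters of the fibroblasts. Dram2 itself was at 33.4, 39.6 and 38.1 CPM (UMIs of the gene scaled by the total UMIs of the sum, the usual counts-per-1000000 scaling) in the wt/wt samples and at 30.7, 28.3 and 30.1 CPM in the ko/ko samples, but 3′ tags lie outside the deleted exon and do not check the labels. Of the type names, Fibroblast proliferating matched 4 division genes that are not members (Ccna2, Ccnb1, Plk1 and Prc1), whose levels summed to 513 CPM there and to 10.9 CPM in Fibroblast. The cells named RPE carried the keratin gene Krt18 at 710 CPM and Otx2, a regulator of RPE identity, at 87.4 CPM. The visual cycle gene Rpe65 was at 0.69 CPM (17 UMIs). Mitf, Rlbp1, Dct and Pmel, the rest of the RPE list, were at 8.92, 6.59, 1.73 and 0.39 CPM. Rlbp1 and Dct were highest in this type, but Mitf was at much the same level in Myeloid and Pmel was higher in Pericyte (0.56 CPM). Fibroblast markers summed to 637 CPM in the cells named RPE, against 816 CPM for the RPE list. The cells named Pericyte went against their name, since the Schwann cell markers Sox10, Ngfr and S100b summed to 636 CPM, Cspg4 gave 199 CPM of the 236 CPM of the pericyte list, and Kcnj8 and Higd1b were at 0. The name Pericyte is used below only as the deposited name.

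After a cell has copied its DNA it passes through G2 phase, in which it builds the machinery of division, and then mitosis, in which chromosomes condense, attach to the spindle through kinetochores and are pulled apart before the cell body is cut by cytokinesis. Many of the genes for this machinery are switched on together late in the cycle and kept silent in resting cells. Their promoters often carry a short element called CHR, with the core TTTGAA, which is read by complexes built on the MuvB proteins with the transcription factors B-MYB and FOXM1, and CCAAT boxes, which are bound by NF-Y. RPE cells of the adult eye do not normally divide, but they can divide again in culture. Fibroblasts divide readily in culture.

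Promoters of some members are shown first because both elements can be read by eye in many of those shown. Promoters of 300 bases, from 250 before to 50 after the start, were taken from RefSeq on GRCm38.p6 for 47 of the 54 members (52 promoters). Aurkb, Cdc25c, Cdca2, Dlgap5, Pimreg, Smc4 and Tpx2 had no entry in that table. The 130 bases from 110 before to 20 after the start are printed 5′ to 3′ on the gene's strand for 6 members whose levels followed division, with capitals for CCAAT and TTTGAA read on either strand (ATTGG and TTCAAA are the same letters on the other strand).
Ccnb2, chr9:70421535-70421664, minus strand: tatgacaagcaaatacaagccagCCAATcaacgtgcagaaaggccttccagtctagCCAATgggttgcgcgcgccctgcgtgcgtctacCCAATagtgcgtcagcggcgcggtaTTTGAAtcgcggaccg
Cdk1, chr10:69352893-69353022, minus strand: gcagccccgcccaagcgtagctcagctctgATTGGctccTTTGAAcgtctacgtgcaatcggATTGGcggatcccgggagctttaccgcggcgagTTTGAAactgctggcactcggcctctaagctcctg
Cdc20, chr4:118437324-118437453, minus strand: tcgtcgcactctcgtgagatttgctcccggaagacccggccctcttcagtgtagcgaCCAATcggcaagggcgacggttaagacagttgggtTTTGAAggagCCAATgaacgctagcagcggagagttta
Top2a, chr11:99024170-99024299, minus strand: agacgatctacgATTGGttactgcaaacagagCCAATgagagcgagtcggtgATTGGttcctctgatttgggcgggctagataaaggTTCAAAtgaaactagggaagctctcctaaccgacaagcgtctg
Hmmr, chr11:40733418-40733547, minus strand: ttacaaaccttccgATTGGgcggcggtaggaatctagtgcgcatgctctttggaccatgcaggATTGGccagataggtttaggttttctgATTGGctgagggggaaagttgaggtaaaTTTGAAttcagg
Ube2c, chr2:164769819-164769948, plus strand: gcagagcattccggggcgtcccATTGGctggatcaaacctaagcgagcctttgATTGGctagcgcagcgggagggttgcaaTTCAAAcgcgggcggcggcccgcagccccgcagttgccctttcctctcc
For comparison, the same window is given for 2 members whose level was much the same in the types Fibroblast proliferating and Fibroblast (below). These examples were picked after the motifs had been counted.
Psrc1, chr3:108383694-108383823, plus strand: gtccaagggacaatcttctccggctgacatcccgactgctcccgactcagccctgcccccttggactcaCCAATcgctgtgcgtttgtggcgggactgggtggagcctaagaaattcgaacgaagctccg
Jpt1, chr11:115514374-115514503, minus strand: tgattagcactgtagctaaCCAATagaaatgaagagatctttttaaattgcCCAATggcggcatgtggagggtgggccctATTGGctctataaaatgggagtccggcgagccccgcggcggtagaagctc

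Each of the 6 promoters of the first set held a CCAAT box upstream of a CHR core, and neither of the other 2 held a CHR core in the 300 bases searched. Over all 52 member promoters, 75% held CCAAT on either strand, against 37.4% of the 32851 promoters of the same length in the table, and 57.7% held it 2 or more times, against 11.7%. The CHR core was in 65.4% of member promoters and in 17.9% of all promoters. Both motifs stood together in 51.9% of member promoters and in 6.95% of all promoters. By the classes defined below, the CHR core was in 73.7% of the 38 promoters of cycle-specific members, in 44.4% of the 9 of members in between and in 40% of the 5 of broad members, so the broad pair printed above does not stand for its class. CCAAT was in 76.3%, 66.7% and 80% of them. Among 35 promoters of S phase genes, the genes of the preceding DNA copying stage, the CHR core was in 14.3% and CCAAT in 65.7%. For 50 promoters of other mitosis genes that are not members the shares were 56% and 68%. A match of letters is a description of the window and shows no binding.

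Most of the 54 members were cycle-specific in these cultures, and a few were not. A member was called cycle-specific where its level in Fibroblast proliferating was at least 4 times that in Fibroblast in each of the 6 samples, broad where it was under 2 times in each, and in between otherwise. This gave 43 cycle-specific members, 7 in between and 4 broad. The deposited types had been clustered on expression, these genes included, so this is a description without a test. The largest ratios, as medians over the 6 samples, were 114 for Mki67, which coats mitotic chromosomes and is the standard marker of dividing cells, 110 for Nusap1, which bundles spindle microtubules, 99.6 for the spindle motor gene Kif11, 96.5 for Kif2c, which takes microtubules apart at kinetochores, and 95.1 for the kinetochore gene Cenpf. In Fibroblast proliferating, Mki67 was at 110, 85.4 and 94.4 CPM in the wt/wt samples and at 109, 93.7 and 112 CPM in the ko/ko samples. In Fibroblast it was at 0.97, 1.22 and 0.78 CPM and at 0.67, 0.82 and 1.67 CPM in the same order. The types did not overlap in any sample. 35 members were at least 10 times higher in each sample.

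At the threshold, the members just inside were Tmpo (median ratio 4.19, lowest 4.06) and Lbr (4.36, lowest 4.07), which tie the nuclear lamina to chromatin and are in between when Fibroblast 2 is the reference, and the members just outside were G2e3, a ubiquitin ligase gene (3.65, from 3.31 to 4.18), and Cks1b, a partner of cyclin-dependent kinases (3.35). The 4 broad members were Psrc1 (median ratio 1.03), a microtubule gene, Jpt1 (1.36), which has been tied to microtubules, the chromatin insulator gene Ctcf (1.52) and the beta-tubulin gene Tubb4b (1.70), the last in between against Fibroblast 2. Psrc1 was at 74.3, 78.0 and 74.5 CPM in the dividing fibroblasts of the wt/wt samples and at 74.3, 68.7 and 75.6 CPM in those of the ko/ko samples. Its mean in Fibroblast was 72.3 CPM ± 5.09 (SD, n = 6), so the types overlapped. The members in between were Anp32e, Ckap5, Gtse1, Cbx5, Rangap1, Cks1b and G2e3.

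**Figure D1:**
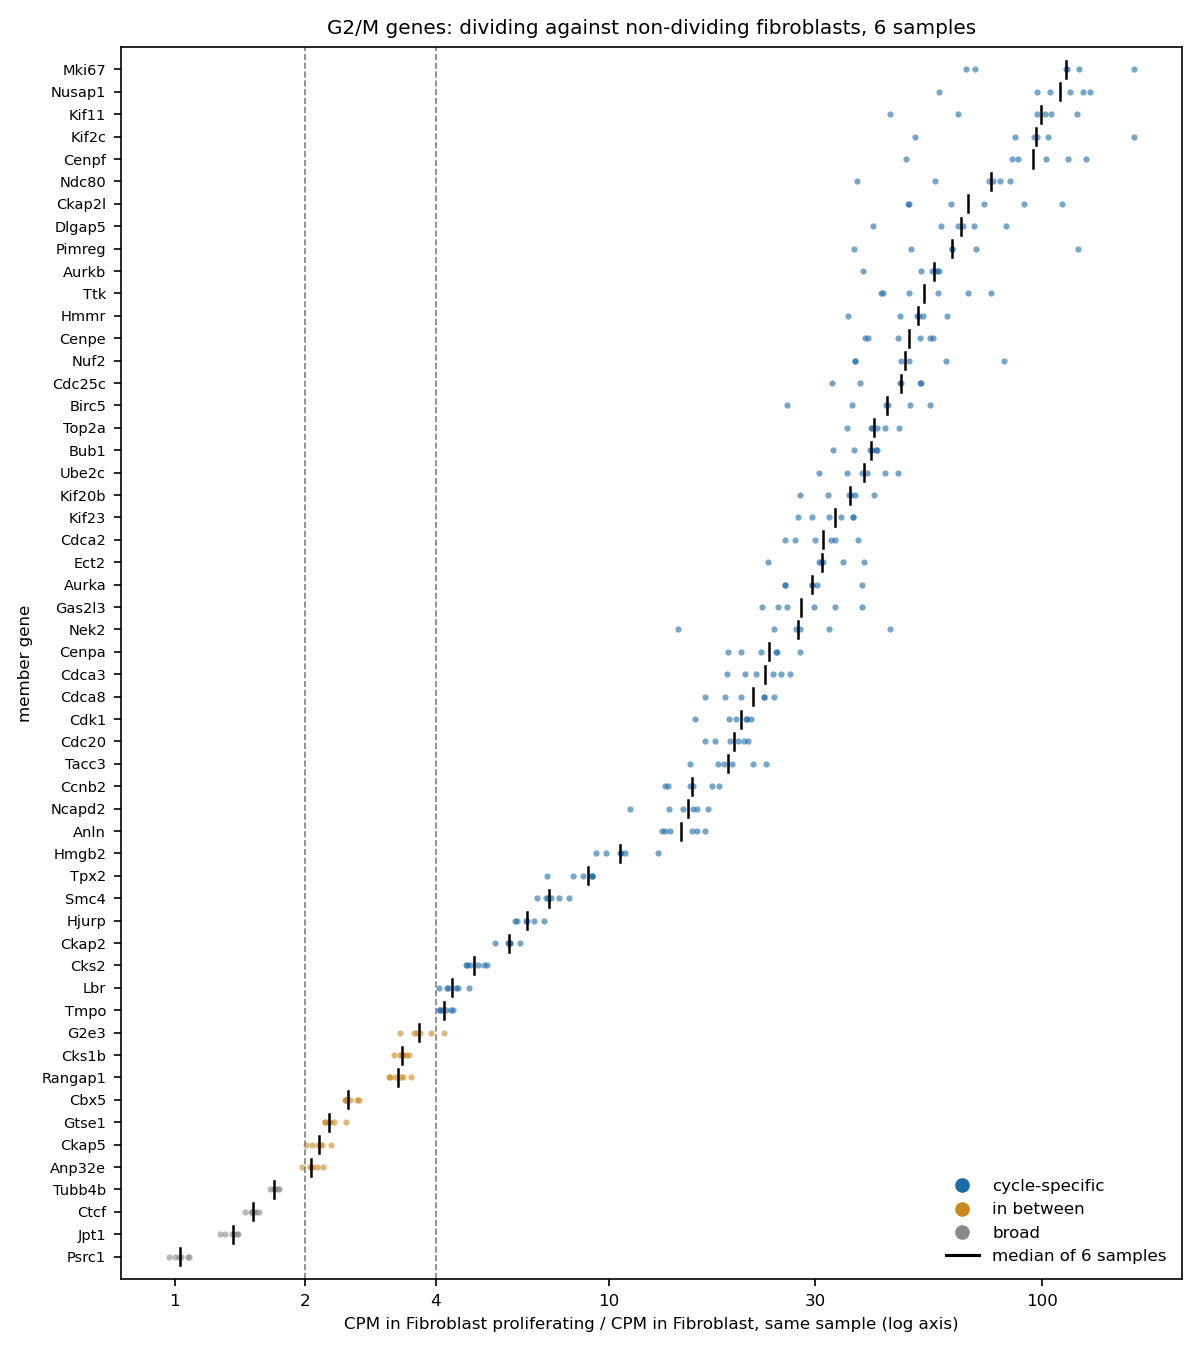
Ratio of each member's CPM in Fibroblast proliferating to its CPM in Fibroblast of the same sample (log axis), with 1 point per sample (n = 6), a black bar at the median and dashed lines at 2 and 4. The members form a continuous series from Psrc1 at 1.03 to Mki67 at 114, and the points of a member lie closer together at the low end than at the high end.

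By role, the kinetochore and centromere genes had a median ratio of 48.2 over 7 members. Within them Hjurp, the chaperone of the centromeric histone, was lowest at 6.47, and Cenpa, which encodes that histone, was at 23.4. The kinases, phosphatase and cyclin partners (10 members, median 28.4) ranged from Cks1b to Aurkb, the kinase of the chromosomal passenger complex, at 56.2. Of these, Cdk1, the kinase that drives entry into mitosis, was at 353, 356 and 344 CPM in wt/wt and at 359, 383 and 364 CPM in ko/ko Fibroblast proliferating, with a ratio of 20.2. The spindle motors and microtubule proteins were the largest group (17 members, median 27.7) and ran from 1.03 for Psrc1 to 110 for Nusap1. The 2 genes of the anaphase-promoting complex machinery, Cdc20, its activator, and Ube2c, its ubiquitin-conjugating enzyme, had ratios of 19.5 and 38.9. The chromosome and chromatin genes (9 members, median 10.6) held 6 cycle-specific members, among them Top2a, which untangles DNA, at 41.0. The 3 nuclear envelope and transport genes were the lowest group, from 3.27 for Rangap1 to 4.36 for Lbr. Counts of 7 members are uncertain because 20% or more of their last 400 transcript bases, read as words of 31 bases, also occur in another gene, mostly a pseudogene: Ckap2l (41.9%), Cdc20 (31.7%), Tubb4b (31.6%), Hmgb2 (28.4%), Cks1b (27.0%), Cks2 (26.8%) and Lbr (23.1%).

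Across the 8 cell types the sum of the cycle-specific members varied widely and that of the broad members little. The summed level of the 43 cycle-specific members was 5286 ± 223 CPM (SD, n = 6 samples) in Fibroblast proliferating, 4322 ± 902 in Pericyte, 1996 ± 282 in Fibroblast-like, 1662 ± 1116 in RPE, 528 ± 214 in Endothelial, 315 ± 17.7 in Fibroblast and 211 ± 17.6 CPM in Fibroblast 2. In Myeloid cells it was 1759 ± 538 CPM over the 4 samples with 10 or more such cells. The fibroblast markers summed to 3101 CPM in these cells, against 4967 CPM in Fibroblast, beside 12380.5 CPM of the myeloid list. The part of fibroblast RNA in the Myeloid values, here and below, was not tested. Fibroblast-like, Myeloid and RPE did not differ beyond their spread, and Pericyte overlapped Fibroblast proliferating through Dram2 ko/ko replicate 2 (5136 CPM). The summed level of the 4 broad members lay between 547 CPM (Myeloid) and 883 CPM (Fibroblast proliferating), but single broad members varied more and in different directions. Ctcf ran from 25% of its Fibroblast proliferating level in Fibroblast-like to 130% in Pericyte, and Psrc1 from 41.8% in Pericyte to 121% in Fibroblast 2. These sums are weighted to the members with the most counts. As a median over the 43 members, the level was 81.9% of that in Fibroblast proliferating in Pericyte, 34.1% in Fibroblast-like, 33.2% in Myeloid, 30.2% in RPE, 7.10% in Endothelial, 3.23% in Fibroblast and 1.27% in Fibroblast 2.

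**Figure D2:**
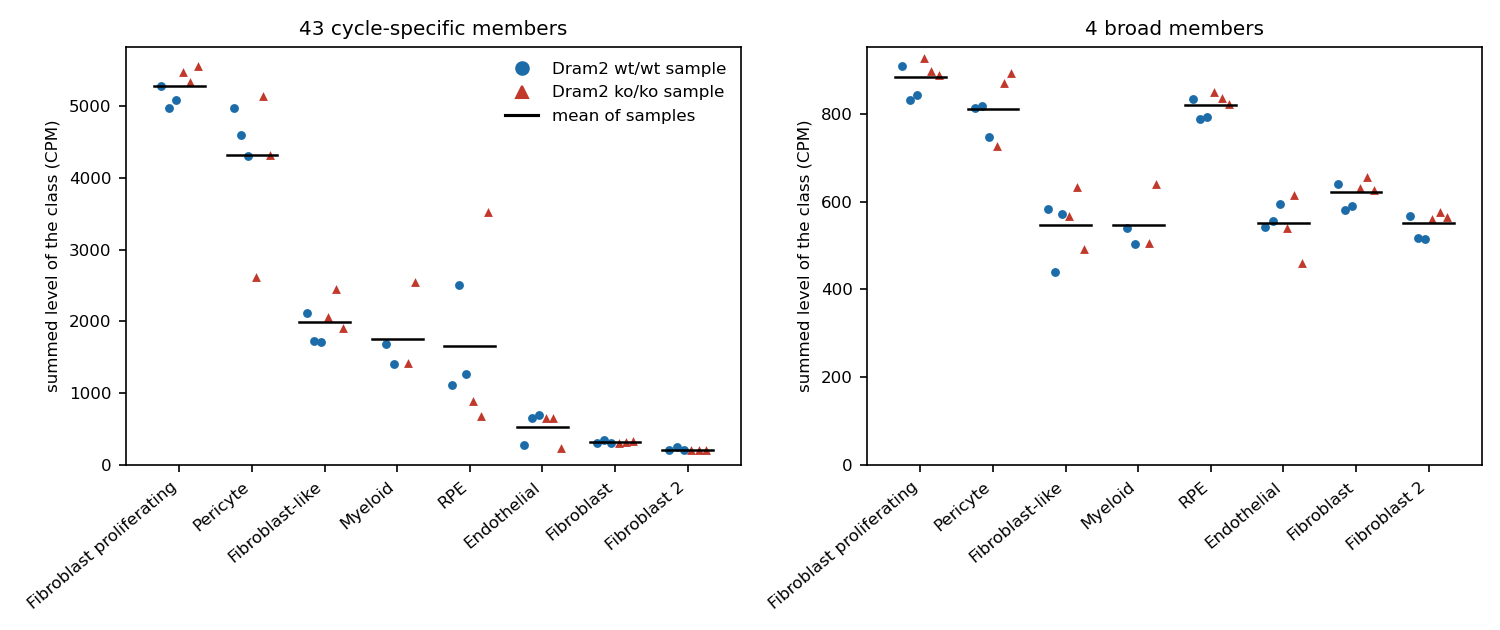
Summed CPM of the 43 cycle-specific members (left) and of the 4 broad members (right) in each cell type, with 1 point per sample (circles Dram2 wt/wt, triangles Dram2 ko/ko) and a bar at the mean. The left panel falls from 5286 CPM in Fibroblast proliferating to 211 CPM in Fibroblast 2, and RPE is the most spread type, with Dram2 ko/ko replicate 3 highest at 3529 CPM.

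Of the 54 members, 40 had their highest mean level in Fibroblast proliferating and 11 in Pericyte, among them Cenpf (188 CPM), Mki67 (130 CPM) and Nusap1 (90.8 CPM). The other 3 were Gtse1, highest in Endothelial (79.4 CPM), Jpt1, highest in RPE (467 CPM), and Psrc1, highest in Fibroblast 2 (89.8 CPM). In Fibroblast and Fibroblast 2 the members did not keep 1 proportion to their level in Fibroblast proliferating. A cycle-specific member stood at 1.01% to 23.8% of it in Fibroblast and at 0.36% to 32.0% in Fibroblast 2. How much of these low levels was free RNA in the droplets, and whether these cells were resting, was not tested. By sub-cluster, the summed cycle-specific level was 5364 CPM in sub-cluster 2, which held 6098 of the 6465 Fibroblast proliferating cells, 2153 CPM in sub-cluster 5 and 1463 CPM in sub-cluster 6. Sub-clusters 1, 3, 4, 7 and 9 lay between 221 and 342 CPM. Sub-cluster 8, whose cells had a median of 91.1% mitochondrial counts, was at 117 CPM over 4 samples. Sub-clusters 5 and 6 had few UMIs per cell (medians 5856 and 4766, against 25305 in sub-cluster 2), and sub-cluster 6 had a median of 21.0% mitochondrial counts.

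Single cells showed the same division within types. Each cell was thinned to 8000 UMIs, which left out 1822 of 12745 wt/wt cells and 1579 of 12683 ko/ko cells that had fewer, and the cycle-specific members with at least 1 UMI were counted. A cell of Fibroblast proliferating held a median of 20 of the 43 (10th to 90th percentile 10 to 29), a cell of Fibroblast a median of 2, and a cell of the type Fibroblast 2 a median of 1. Without thinning the medians were 31, 5 and 3. The share of cells with 10 or more, pooled over samples, was 90.8% in Fibroblast proliferating, 63.1% in Pericyte, 45.5% in Fibroblast-like, 43% in RPE, 33.9% in Myeloid, 2.92% in Endothelial, 0.763% in Fibroblast and 0.311% in Fibroblast 2. In RPE it was 17.5%, 43.7% and 21.1% in the wt/wt samples and 16.7%, 5.81% and 58.5% in the ko/ko samples, so the pooled share was carried by the 2 highest samples, which held 332 and 513 of the 1142 thinned cells. By sample it ran from 31.2% to 70.6% in Pericyte, from 38.7% to 73.3% in Fibroblast-like and from 33.3% to 37.5% in Myeloid, over samples with 10 or more thinned cells, so RPE, Fibroblast-like and Myeloid cannot be put in order. In Fibroblast-like, 930 of 1121 cells were under 8000 UMIs and were left out, so its share describes its deepest cells. RPE and Pericyte cells fell into 2 ranges, with many cells at 1 or 2 members and others spread between 10 and 35.

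**Figure D3:**
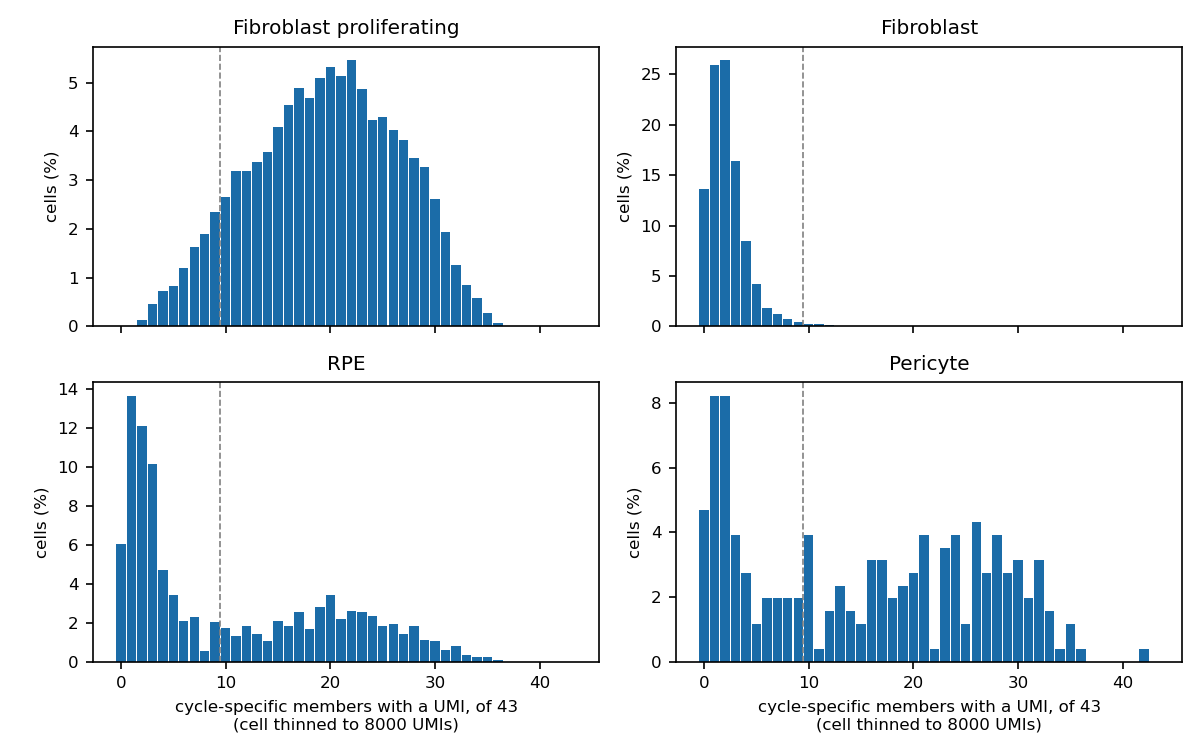
Percent of cells (vertical axis, on its own scale in each panel) by the number of the 43 cycle-specific members with a UMI after thinning to 8000 UMIs, in 4 cell types, with a dashed line below 10. Fibroblast proliferating centres on 20 and Fibroblast on 2, while RPE and Pericyte have cells in both ranges.

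The low and high ranges in RPE and Pericyte could be compared with marks that are not members. A cell was called division-marked where Ccna2, Ccnb1, Plk1 and Prc1 together had 2 or more UMIs after thinning, and unmarked where they had none, and the members were tested between the classes over samples with 10 or more cells in each, with the sample as a factor (voom-limma, Benjamini-Hochberg adjustment over all genes tested, called at an adjusted p under 0.05). Genes could pass the filter on low counts through the marked class alone.

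In RPE, 52 of the 54 members rose in division-marked cells and none fell, against 16% of all 13073 genes tested that rose. Of the 42 members whose sums of unmarked cells passed the filter on their own, 40 rose, against 15.9% of 11979 such genes. The test used 420 marked and 441 unmarked cells of Dram2 wt/wt replicates 2 and 3 and Dram2 ko/ko replicate 3. Cenpf was at 212, 146 and 263 CPM in the marked cells of these samples and at 10.1, 6.46 and 8.70 CPM in the unmarked cells. The classes did not overlap, and its log2 fold change was 4.55 (SE 0.17, adjusted p = 6.97e-08). Mki67 was at 97.8, 77.9 and 134 CPM against 5.34, 1.29 and 7.41 CPM, a log2 fold change of 4.25 (SE 0.23). Its sums of unmarked cells did not pass the filter on their own. The other members among the 10 with the largest log2 fold changes were Kif2c (4.31), the outer kinetochore gene Ndc80 (4.26), Aurkb (4.21), Ube2c (4.19), Ckap2l, a spindle protein gene (4.19), Nusap1 (4.17), Top2a (4.13) and the kinetochore motor gene Cenpe (4.12). Of these, Ndc80, Kif2c, Ckap2l, Aurkb and Nusap1 rested on 30, 42, 50, 53 and 61 UMIs in the unmarked cells, fewer than the 79 of Mki67. They may be among the 12 members described next. Ube2c, Top2a and Cenpe rested on 387, 259 and 152. The 12 members outside those 42, Mki67 among them, passed only together with the marked class, where they were high. Their rise is not counted as support. Of the 4 broad members 2 rose, Ctcf and Tubb4b. Psrc1 (log2 fold change 0.14, SE 0.13, adjusted p = 0.461) and Jpt1 (0.18, SE 0.07, adjusted p = 0.0774) were not called. The sign of the Psrc1 value turned under some alternatives (last section). The classes had been set on the fibroblasts, which had no part in this test. The median log2 fold change of all genes was -0.001.

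The sum of the RPE markers was lower in the division-marked RPE cells of each of the 3 samples, a difference that was not tested. The 7 RPE markers summed to 383 CPM in marked cells (191 to 595 over the 3 samples) and to 696 CPM in unmarked cells (452 to 983), with 2 of the 7 higher in marked cells. Over all cells named RPE, Krt18 alone gave 710 CPM of the 816 CPM of this list, so its sum mostly follows that keratin gene. The 6 fibroblast markers summed to 649 CPM (435 to 949) and 745 CPM (553 to 1017), with 2 of the 6 higher. The Schwann genes Sox10, Ngfr and S100b and the endothelial, myeloid and pericyte lists each had a mean sum of at most 28.2 CPM in either class. The part of these differences in the members' values was not tested.

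In Pericyte, 49 of the 54 members rose in division-marked cells and none fell, against 5.94% of the 6501 genes tested that rose. Of these members only 8 had sums of unmarked cells that passed the filter on low counts on their own, and all 8 rose, against 4.17% of the 3310 genes that did so. The members with the most UMIs in the unmarked cells were Jpt1 (343), Anp32e (237), Cbx5 (192), Tubb4b (144) and Ctcf (123), which are broad or in between. A filter on low counts favours such members, so the 8 say little about the cycle-specific ones. The other members tested passed only together with the marked class, where all but Psrc1 were high, so their count does not support the result. Cks2, Nuf2, Nek2 and Cdc25c did not pass the filter, and Psrc1 was not called (log2 fold change -0.26, SE 0.32, adjusted p = 0.693). The sign of this Psrc1 value turned under several alternatives (last section). The test used 136 marked and 64 unmarked cells of the 3 wt/wt samples and Dram2 ko/ko replicate 2. Cenpf, with the largest fitted log2 fold change (6.29, SE 0.57, adjusted p = 2.48e-07), was at 434, 260, 267 and 367 CPM in marked cells and at 0, 8.23, 0 and 7.79 CPM in unmarked cells. It rested on 4 UMIs in the unmarked cells (ratio of pooled counts 99.0, 95% exact interval 38.5 to 364), and that interval overlaps the one of Pimreg given below. Mki67, Nusap1 and Ube2c rested on 6, 7 and 30 UMIs in the unmarked cells, with ratios of pooled counts of 44.9 (95% exact interval 20.5 to 123), 26.9 (12.9 to 67.3) and 23.7 (16.5 to 35.3). Kif11 had 205 UMIs in the marked cells and 0 in the unmarked cells, at least 29.2-fold higher when the unmarked group is set at 3 UMIs. Pimreg, Cdca2, Aurkb, Ncapd2 and Bub1 completed the 10 and rested on 2 or 3 UMIs in the unmarked cells. Their ratios of pooled counts were 50.6 (95% exact interval 13.9 to 420), 41.4 (11.3 to 344), 40.9 (13.8 to 199), 23.6 (7.95 to 116) and 31.9 (10.8 to 156), counting error only. The fibroblast list summed to 6410 CPM in marked and 5040 CPM in unmarked cells, Sox10, Ngfr and S100b together to 551 and 735 CPM, and the pericyte list to 232 and 261 CPM, and their part in the result was not tested. In Fibroblast-like only 1 sample had 10 or more cells in both classes, so no test was made there.

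Within the dividing fibroblasts the members differed in how far they favoured the late cycle over S phase. No mark used here separated G2 cells from cells in mitosis. Cells of Fibroblast proliferating with 2 or more UMIs of Ccnb1 and Plk1 (mitosis-marked, 1574 cells) were compared with cells that had none of these and 3 or more UMIs of 8 S phase genes (S-marked, 2691 cells: Mcm5, Mcm6, Cdc6, Gins2, Tyms, Ccne2, Uhrf1 and Rrm2, none of them a member) in all 6 samples. All 54 members were higher in the mitosis-marked cells, against 12.9% of the 14806 genes tested that were higher. The size ran from 0.14 to 2.31 on the log2 scale, with a median of 0.94, where the median of all genes was -0.001. The largest were Gas2l3, which links actin and microtubules (2.31, SE 0.06, adjusted p = 2.2e-17), and Cenpf (2.06, SE 0.03). Gas2l3 was at 39.7, 41.3 and 39.6 CPM in mitosis-marked cells of the wt/wt samples and at 52.0, 39.1 and 47.8 CPM in those of the ko/ko samples. In S-marked cells it was at 7.07, 8.37 and 8.24 CPM and at 11.4, 7.34 and 9.40 CPM. No sample's values came near to overlapping. Next came Nusap1 (1.80), the spindle pole kinase gene Aurka (1.78), Ube2c (1.56), the cytokinesis motor genes Kif23 (1.49) and Kif20b (1.40), Kif2c (1.39), Pimreg (1.36) and Cenpe (1.32).

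At the other end, Lbr was 0.14 higher (SE 0.05, adjusted p = 0.0287) and lay higher in 5 of 6 samples. It is the 1 member whose call was lost with DESeq2 and without the filter on low counts, and when any sample other than Dram2 wt/wt replicate 3 was left out. Ctcf (0.18), Anp32e, a histone chaperone gene (0.20), Psrc1 (0.25), the heterochromatin protein gene Cbx5 (0.26), Jpt1 (0.28) and Tmpo (0.36) were also small. This order differed from that of the ratios, since Tmpo and Lbr were cycle-specific by ratio and near the bottom here, and G2e3, in between by ratio, was 1.2 higher. By role, the medians were 1.39 for the anaphase-promoting complex genes, 1.06 for kinetochore and centromere genes, 1.05 for spindle motors and microtubule proteins, 1.05 for ubiquitin ligases and their adaptors, 0.94 for kinases and cyclin partners, 0.88 for cytokinesis genes, 0.88 for the chromosomal passenger complex, 0.66 for chromosome and chromatin genes and 0.36 for nuclear envelope and transport genes. Members at least 1 higher on the log2 scale numbered 22, and 11 were under 0.5.

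**Figure D4:**
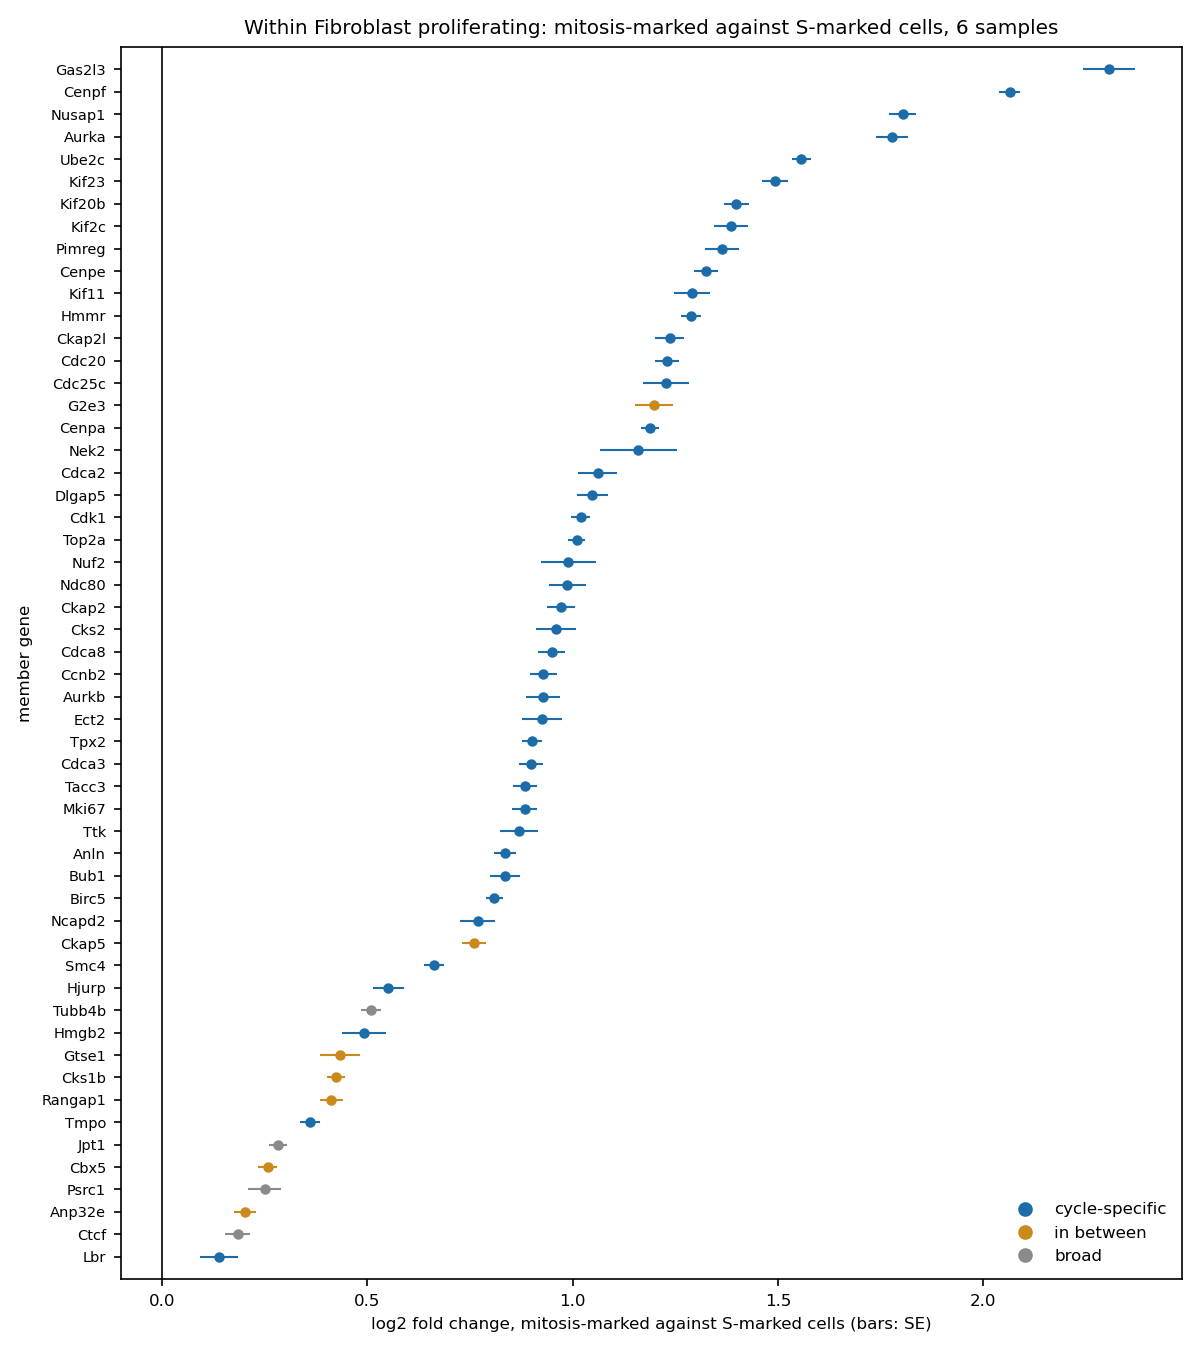
Log2 fold change of each member between mitosis-marked and S-marked cells of Fibroblast proliferating (voom-limma, 6 samples, bars are standard errors), coloured by the class of the member. All 54 points lie above 0, from Lbr at 0.14 to Gas2l3 at 2.31.

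Gene lists of the surrounding pathways behaved as follows in that comparison. Of 53 mitosis genes that are neither members nor marks, 51 rose and none fell. Of 35 S phase genes left after the marks were taken out, 24 fell and 4 rose, where 12% of all genes tested fell and 12.9% rose. Of 20 regulators of the cycle, 5 rose and 6 fell. Among them Foxm1, the activator of late cycle genes, rose by 0.76 (SE 0.05) and Mybl2, which encodes B-MYB, fell by 0.61 (SE 0.13, adjusted p = 0.00192). In division-marked RPE cells both were higher, Foxm1 by 3.09 (SE 0.25) and Mybl2 by 2.31 (SE 0.35) on the log2 scale. There 32 of 35 S phase genes rose and none fell, and of 51 mitosis genes tested 48 rose and 1 fell, where 16% of all genes tested rose and 15.6% fell. Genes of these lists could also pass the filter on low counts through the marked class alone. Such genes were not counted apart, so these counts do not support the result.

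Between the genotypes no member was called, in any set of cells. In the whole sample, with all cells summed, 0 of 54 members passed voom-limma at an adjusted p under 0.05, against 0% of the 22580 genes tested. At an unadjusted p under 0.05 there were 4 members by voom-limma, 5 by edgeR's quasi-likelihood test and 5 by DESeq2, of which neither edgeR nor DESeq2 called any after adjustment. Over all genes edgeR called 0% and DESeq2 1.69%. Of all genes, 7.01% had such a p by voom-limma. The members' log2 fold changes (ko/ko against wt/wt) had a median of 0.15, with 47 positive and 7 negative, where the median of all genes was 0.005. Leaving out the batch 2 sample brought the median to 0.07, and leaving out wt/wt replicate 3 to 0.08. In a sum over all cells, more dividing cells and more RNA per cell cannot be told apart. The summed cycle-specific level was 1702, 1915 and 1582 CPM in the wt/wt samples and 1777, 1848 and 2170 CPM in the ko/ko samples, which overlap.

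The 5 members with the lowest unadjusted p in the whole sample all had positive values. Kif20b was at 30.5, 27.4 and 27.3 CPM in wt/wt and at 31.2, 36.8 and 35.3 CPM in ko/ko samples. The groups did not overlap, yet its log2 fold change of 0.29 (SE 0.10) had an adjusted p of 0.505 by voom-limma over all genes. Hmmr, which binds spindle microtubules, was at 46.5, 44.0 and 39.0 against 47.2, 52.6 and 56.0 CPM (0.29, SE 0.10, adjusted p = 0.522). The groups were again apart, by a small step. Cenpa had 0.30 (adjusted p = 0.658), Ube2c 0.27 (0.662) and Birc5, the survivin gene of the passenger complex, 0.29 (0.763), each with overlapping groups. Over all alternatives Kif20b ran from 0.22 to 0.36, Hmmr from 0.21 to 0.35 and Cenpa from 0.20 to 0.38. Ube2c ran from 0.15 to 0.35 and Birc5 from 0.21 to 0.42, and each end came from leaving out 1 sample.

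In Fibroblast proliferating 0 of 54 members were called, against 0.624% of the 18113 genes tested, and 4 had an unadjusted p under 0.05, as did 6.79% of all genes (3 members by edgeR and 3 by DESeq2, none of them called, where edgeR called 0.342% and DESeq2 1.77% of all genes). The median was 0.06, with 43 positive and 11 negative, where the median of all genes was -0.006. Of 57 mitosis genes that are not members, 35 were positive and 22 negative. Signs of genes that are switched on together are not independent counts. Cenpa was at 203, 199 and 192 CPM in wt/wt and at 221, 238 and 221 CPM in ko/ko samples (0.19, SE 0.07, adjusted p = 0.585). Its groups did not overlap. How many of all genes had groups apart in this type was not counted. Hmmr was at 158, 124 and 139 against 161, 165 and 162 CPM (0.22, SE 0.10, adjusted p = 0.735), and Ube2c at 465, 439 and 412 against 512, 490 and 480 CPM (0.17, SE 0.08, adjusted p = 0.779), also without overlap. The values of Hmgb2, a chromatin protein gene, overlapped and were lower in ko/ko (-0.31, SE 0.12, adjusted p = 0.603), as were those of Cks2 (-0.29, SE 0.12, adjusted p = 0.617), and both are among the members with uncertain counts. Over all alternatives Cenpa ran from 0.15 to 0.22, Hmmr from 0.13 to 0.31 and Ube2c from 0.13 to 0.21. Hmgb2 ran from -0.44 to -0.20 and Cks2 from -0.39 to -0.18, and each end came from leaving out 1 sample.

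**Figure D5:**
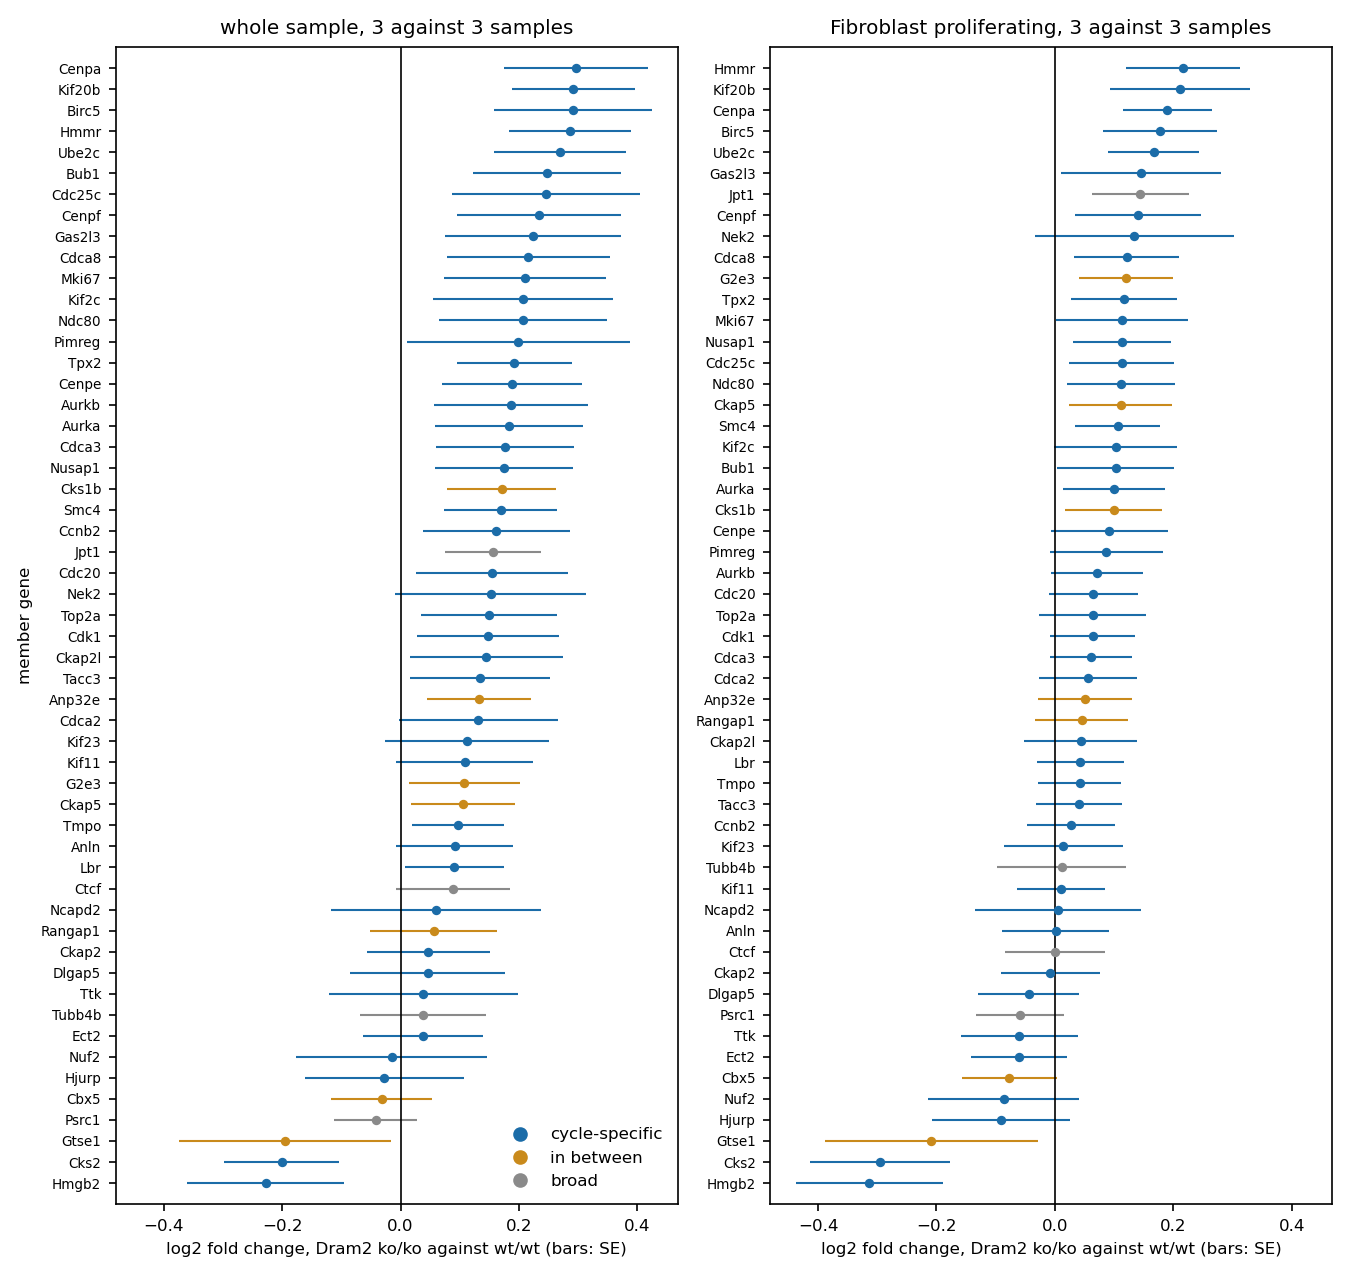
Log2 fold change of each member between Dram2 ko/ko and Dram2 wt/wt samples (voom-limma, 3 against 3, bars are standard errors) in the whole sample (left) and in Fibroblast proliferating (right), coloured by the class of the member and sorted within each panel. None was called, and the points lie between -0.31 and 0.30.

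In the other cell types 0 members were called as well. The shares of all tested genes that were called were 0.00503% in Fibroblast, 0.222% in Fibroblast 2, 0.0296% in Myeloid, 0.0118% in Pericyte and 0% in RPE, Endothelial and Fibroblast-like. Members tested numbered 54 in Fibroblast, 53 in RPE and in Pericyte, 48 in Fibroblast-like, 39 in Fibroblast 2 and in Myeloid and 19 in Endothelial, and 0 to 5 of them had an unadjusted p under 0.05 by voom-limma, 0 to 4 by edgeR and 0 to 2 by DESeq2, neither of which called any. Of all genes, 4.65% to 7.18% had such a p by voom-limma in these types, and edgeR called 0% to 0.148% and DESeq2 0.163% to 1.61% of them. Of the 39 values in Fibroblast 2, 23 were negative and 16 positive, with a median of -0.06, where the median of all genes was -0.01. In Pericyte 41 of 53 values were negative, with a median of -0.15, which was -0.02 when ko/ko replicate 1 was left out and -0.33 when ko/ko replicate 2 was. The median of all genes there was -0.003, and 42 of 51 mitosis genes that are not members were negative. The summed cycle-specific level there was 4970, 4595 and 4297 CPM in wt/wt and 2617, 5136 and 4316 CPM in ko/ko samples. In Myeloid 30 of 39 values were positive, with a median of 0.33, where the median of all genes was 0.01. It was -0.11 without the batch 2 sample, -0.14 with batch as a covariate, 0.64 without ko/ko replicate 2 and 0.44 without wt/wt replicate 2. In RPE the median was 0.04, but it was -1.14 without Dram2 ko/ko replicate 3, -0.05 when wt/wt replicate 1 was left out, -0.15 when wt/wt replicate 3 was, and -1.19 with batch as a covariate, and it was 0.27, 0.33 and 0.41 when ko/ko replicate 1, ko/ko replicate 2 or wt/wt replicate 2 was left out and 0.23 without the 5% of cells with the most UMIs, still with 0 members called. The summed cycle-specific level in RPE was 1108, 2506 and 1264 CPM in wt/wt and 890, 675 and 3529 CPM in ko/ko samples, so the only batch 2 sample was the highest and the other ko/ko samples were the lowest. In Myeloid, with 2 samples against 2, leaving out replicate 2 of either genotype left 1 sample in that group. Without wt/wt replicate 2 the log2 fold changes of Ube2c and Cenpf, picked by their values in these fits, were 1.35 and 1.98. They were 1.48 and 1.79 without ko/ko replicate 2, where the batch 2 sample was the only ko/ko sample. Batch and genotype cannot be told apart in that fit.

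By fibroblast sub-cluster 0 members were called in sub-clusters 1 to 7, where the shares of all genes were 0.32%, 0.55%, 0.00634%, 0.722%, 0%, 0% and 0.402% in that order. From 0 to 6 members had an unadjusted p under 0.05 by voom-limma, 0 to 5 by edgeR and 0 to 3 by DESeq2, and neither of these called any. For all genes the share was 4.63% to 7.48% by voom-limma, and edgeR called 0% to 0.613% and DESeq2 0% to 1.77% of them. The lowest adjusted p was that of Cenpa in sub-cluster 7, at 23.6, 18.9 and 50.05 CPM in wt/wt and 1.12, 13.3 and 3.47 CPM in ko/ko samples (log2 fold change -2.63, SE 0.62, adjusted p = 0.0988), on 78 UMIs in all. The groups did not overlap, and without the filter on low counts it was called. How many of all genes had groups apart in sub-cluster 7 was not counted. In sub-cluster 8 no member passed the filter, and sub-cluster 9 had too few samples. A test of whether the genotype effect differed between Fibroblast proliferating and Fibroblast called 0 of 54 members, against 0.0101% of the 19755 genes tested, with 2 members at an unadjusted p under 0.05 by voom-limma, 3 by edgeR and 0 by DESeq2. Of all genes, 3.72% had such a p by voom-limma, much the same share as of the members.

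The share of division-marked cells was 20.7%, 25.3% and 19.7% in wt/wt and 21.1%, 22.8% and 26.8% in ko/ko samples, or 21.9% ± 2.97 against 23.6% ± 2.95 (SD, n = 3 each, p = 0.5 by an exact two-sided permutation test, which cannot go below 0.1 here). Without thinning the means were 28.9% and 29.7%. Within Fibroblast proliferating it was 71.7% ± 0.18 and 72.9% ± 1.25 (exact permutation p = 0.3), within Pericyte 59.5% ± 4.82 and 48.5% ± 16.5 (exact permutation p = 0.4). The Pericyte shares were 58.7%, 64.7% and 55.2% in wt/wt and 31.2%, 64.2% and 50% in ko/ko samples, and without Dram2 ko/ko replicate 1, which had 16 such cells, the difference between the means shrank from -11.0 to -2.43 percentage points. Without Dram2 ko/ko replicate 2 it widened to -18.9 percentage points. In RPE the shares were 7.5%, 39.5% and 17.9% in wt/wt and 8.33%, 5.81% and 52.0% in ko/ko samples (exact permutation p = 0.9). In Fibroblast, which should hold few dividing cells, 0.69% of cells were marked at 8000 UMIs, and 7.77% had 1 or more UMIs of the marks. At full depth (median 26108 UMIs, against 24625 in Fibroblast proliferating) 5.25% of Fibroblast cells had 2 or more, from 2.30% to 11.4% by sample, against 88.4% of Fibroblast proliferating cells.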

How the data were processed

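The deposited table held UMI counts per gene and cell, made by the authors with Cell Ranger 3.1.0 on GRCm38 (names from the submitters' processing notes) with exons only, and not normalised. A deposited cell table gave sample, genotype, batch, cell type and fibroblast sub-cluster. No per-sample column was left unmapped. Cells carry running identifiers in place of barcodes, so barcodes shared between libraries could not be counted. No doublets were removed, and an alternative left out the 5% of cells with the most UMIs in each sample. Some of the marker genes chosen are not reported here.

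Counts were summed over the cells of a sample and type where there were 10 or more, filtered (filterByExpr), TMM-scaled (edgeR 4.0.16) and tested by voom-limma (limma 3.58.1, R 4.3.3), with Benjamini-Hochberg adjustment over all genes tested. Levels are CPM of the sum. DESeq2 1.42.0, edgeR's quasi-likelihood test, other scaling and filters, batch, the replicate number and left-out samples were alternatives. Scripts were tested on simulated data. Symbols and positions came from GENCODE on GRCm38, promoters from RefSeq. The members and gene lists were chosen with earlier results of these data known. Genotype values are named for the 5 members of lowest p in the whole sample and in Fibroblast proliferating, and class values for the 10 largest and those not called. Counts over genes whose unmarked cells pass the filter alone were chosen after seeing the data. Cenpa in sub-cluster 7 was added after its value was seen, as were the Lbr, Ctcf, Anp32e, Psrc1, Cbx5, Jpt1, Tmpo and G2e3 values between mitosis-marked and S-marked cells.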

Additional observations from a re-analysis of the deposited data

How the results depend on the processing

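No member was called between the genotypes in the whole sample, in 7 of the 8 cell types, in sub-clusters 1 to 6 or in the test of the difference between Fibroblast proliferating and Fibroblast under any alternative that was run. Sub-cluster 7 was an exception, where dropping the filter on low counts gave 1 called member (Cenpa). In Myeloid no member was called under the alternatives that kept 2 samples per genotype. Leaving out 1 Myeloid sample left 1 in a group, which is then assumed to vary like the others. Calls from those fits are not counted, and only effect sizes are given above. The replicate numbers did not pair the samples (correlations of same-numbered samples 0.099, -0.43 and 0.028), and with the replicate block 0 members were called in every comparison of genotypes. In the marked cells, members that rose numbered 51 to 53 in RPE and 53 to 54 between mitosis-marked and S-marked cells over all alternatives, where 8.5% to 17.6% and 4.39% to 13.2% of all genes rose. In Pericyte they numbered 44 to 53 (2.81% to 6.23% of all genes), a count that mostly rests on members let in by the marked class. Calls lost in Pericyte were those of Anp32e, Ctcf, Gtse1 and Hmgb2 with DESeq2 and of Anp32e and Ctcf without thinning of the marks. With 1 sample left out, Anp32e, Gtse1, Hmgb2 or Lbr lost theirs, depending on the sample. The log2 fold change of Psrc1 between division-marked and unmarked cells, called under no setting in RPE or Pericyte, changed sign in RPE without thinning of the marks (-0.11) and with 1 sample left out (range -0.032 to 0.28, negative without Dram2 ko/ko replicate 3), and in Pericyte without thinning (0.16), with 1 sample left out (range -0.51 to 0.22, positive without Dram2 wt/wt replicate 2), without the 5% of cells with the most UMIs (0.04) and with a second random draw of the thinned UMIs (0.32), an alternative chosen after seeing the data. The cause was not tested. With that draw 53 members rose in RPE (Jpt1 added), 51 in Pericyte (Cks2 and Nuf2 added, with 7 and 0 unmarked UMIs in the first draw) and 54 between mitosis-marked and S-marked cells, against 16.3%, 5.07% and 12.5% of all genes, none of the earlier calls was lost, and a member's log2 fold change moved by at most 1.04, 1.31 and 0.12 (medians 0.13, 0.31 and 0.016). Jpt1 in RPE was called without the filter (0.23, adjusted p = 0.0118). The number of cycle-specific members was 46 with a threshold of 3 times (Cks1b, Rangap1 and G2e3 added) and 44 with Fibroblast 2 as the reference, where the same 3 entered, Lbr and Tmpo left, Tubb4b left the broad members and Anp32e joined them. The difference in the share of division-marked cells ran from 0.042 to 3.36 percentage points when 1 sample was left out, lowest without Dram2 ko/ko replicate 3. Batch 2 is 1 ko/ko sample, so batch and that sample cannot be told apart.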
